A study of Arabidopsis thaliana with 6 samples.

Results

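A total of 27 genes differed widely among 3 stems of Arabidopsis thaliana plants that overexpress Bnt07G011994, and they are described here with their levels in wild-type (WT) stems. They were chosen by their FPKM values (the length- and depth-scaled fragment level that the authors deposited) in the overexpressor alone: the highest of the 3 values had to reach 10 FPKM and be at least 5 times the lowest. Of 24434 genes in the table, 9973 reached 10 FPKM in an overexpressor library, and the 27 were 0.271% of these. The 5-fold spread in the overexpressor is therefore how the genes were found, not a result, and no test is given for it. Each overexpressor library is 1 plant's stems, so a difference between 2 of them has no replicate.

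The libraries are 3 overexpressor replicates, which the labels call Bn13, and 3 WT replicates, all of the Columbia ecotype and grown under glass at 22 °C with 15 h of light and 9 h of dark. Stems were cut when about 10 cm long, the stems of each plant forming 1 sample. The labels do not say what drives the transgene, whether the 3 overexpressor plants share 1 line, or at what hour each was cut. All identifiers in the table are Arabidopsis loci, and the level of the transgene was not analysed here. The number of reads per library, recovered from the values, was 45092783 to 45642240 in the overexpressor and 44597288 to 45265483 in WT, so depth hardly differed. Markers of fibres and secondary walls were detected in every library: their 5 genes (NST1, NST3, CESA4, CESA7 and CESA8) summed to 878, 615 and 924 FPKM in overexpressor replicates 1, 2 and 3 and to 148, 742 and 789 FPKM in WT replicates 1, 2 and 3. The vessel markers XCP1 and XCP2 summed to 104, 73.6 and 97.9 FPKM in the overexpressor and to 14.4, 82.6 and 91.7 FPKM in WT, in the same order of replicates. WT replicate 1 stood apart in these as in many genes. The 8 flower and anther markers in the table summed to 4.07 to 8.49 FPKM in the overexpressor and 4.82 to 8.84 FPKM in WT, and of 6 seed markers CRU2 and SESA1 were under 0.1 FPKM in every library and the sum was 2.05 FPKM in overexpressor replicate 1 and at most 0.0315 FPKM in the others. In whole stems, fewer cells of a type and less RNA per cell cannot be told apart.

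Several of the 27 genes belong to pathways whose transcripts are known to follow a plant's supply and surroundings. Flavonoid genes make the sunscreen flavonols and the red anthocyanins of stems, and respond to light, sugar and cold. BTB-TAZ genes such as BT2 respond to nitrate and are repressed by sugar. Xyloglucan-modifying enzymes such as TCH4, which loosen or rejoin the cell wall, rise within minutes of touch, and aliphatic glucosinolates are methionine-derived defence compounds. Below, values are always in the order of replicates 1, 2 and 3.

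The extreme library was not the same one for all genes. Overexpressor replicate 1 was highest in 11 of the 27 genes (40.7%, against 30.1% of the 9973 genes that reached 10 FPKM). Replicate 2 was highest in 11 (40.7%, against 44.7%) and replicate 3 in 5 (18.5%, against 25.2%). Replicate 2 was lowest in 12, replicate 3 in 9 and replicate 1 in 6. The commonest orders were replicate 1 highest with replicate 2 lowest, in 10 genes, and replicate 2 highest with replicate 3 lowest, in 8. Among all 9973 genes that reached 10 FPKM, these 2 orders made up 20.5% and 13.4%. By pairs of plants, 18 of the genes were at least 5-fold apart between replicates 1 and 2, 12 between replicates 2 and 3 and 4 between replicates 1 and 3, and all 27 lie within these pairs by construction. By the same measure no gene lay 5-fold apart between WT replicates 2 and 3, while 302 did between WT replicates 1 and 2 and 333 between WT replicates 1 and 3.

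**Figure D1:**
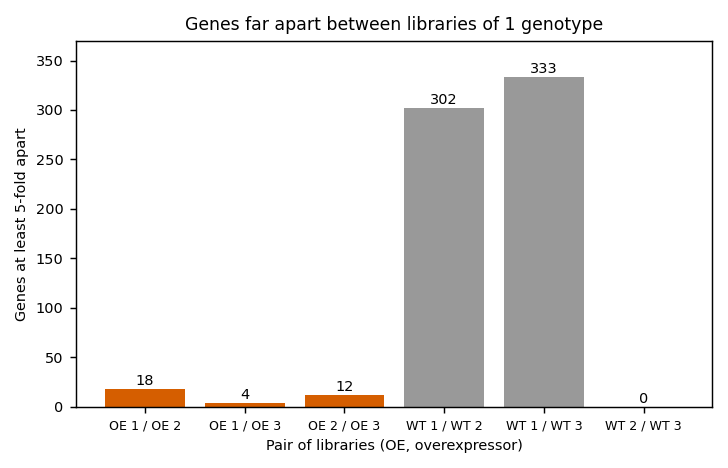
Number of genes (vertical axis) at least 5-fold apart with the higher value at 10 FPKM or more, for each pair of libraries of 1 genotype (horizontal axis, overexpressor pairs in orange, WT pairs in grey). The overexpressor pairs hold 18, 4 and 12 genes, the 2 WT pairs with replicate 1 hold 302 and 333, and the pair of WT replicates 2 and 3 holds 0.

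**Figure D2:**
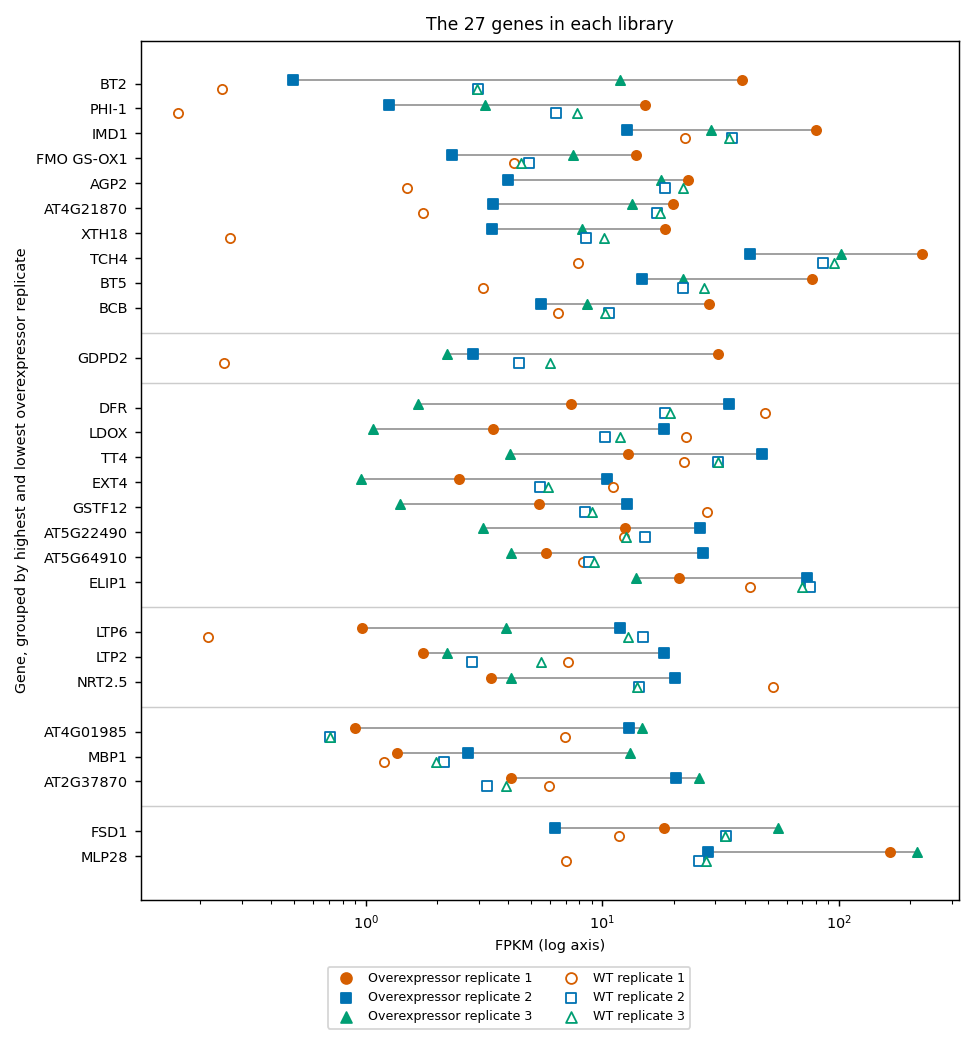
FPKM on a log axis for each of the 27 genes (rows, grouped by which overexpressor replicate was highest and which lowest) in the 3 overexpressor libraries (filled, joined by a line) and the 3 WT libraries (open). WT replicates 2 and 3 lie close together in every row but LTP2, and WT replicate 1 lies far to the left in rows such as LTP6, PHI-1 and GDPD2.

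The pigment genes had 1 order in common: all 4 of them were highest in overexpressor replicate 2 and lowest in replicate 3. TT4 (AT5G13930, chromosome 5, 4488476 to 4490264, plus strand) encodes chalcone synthase, the entry enzyme of the flavonoid pathway, and stood at 12.8, 47.1 and 4.06 FPKM in the overexpressor and at 22.2, 30.9 and 30.7 FPKM in WT. DFR (AT5G42800, chromosome 5, 17164093 to 17166032, minus strand), dihydroflavonol reductase and the first step committed to anthocyanins, stood at 7.35, 34.1 and 1.66 FPKM in the overexpressor and at 48.9, 18.4 and 19.3 FPKM in WT. LDOX (AT4G22880, chromosome 4, 12004726 to 12006209, minus strand), anthocyanidin synthase, which acts after DFR, stood at 3.46, 18.3 and 1.08 FPKM in the overexpressor and at 22.5, 10.3 and 11.8 FPKM in WT. Replicate 2 was the high plant and replicate 3 the low one at all 3 enzymes. The highest-to-lowest fold in the overexpressor was 11.6 for TT4, 20.5 for DFR and 16.98 for LDOX. GSTF12 (AT5G17220, chromosome 5, 5658416 to 5659661, plus strand), a glutathione S-transferase needed to bring anthocyanin into the vacuole, stood at 5.38, 12.7 and 1.396 FPKM in the overexpressor and at 27.7, 8.41 and 9.01 FPKM in WT, a 9.08-fold spread in the overexpressor. WT replicates 2 and 3 fell between the overexpressor extremes in all 4 genes. WT replicate 1 was the highest of all 6 libraries in DFR, LDOX and GSTF12, and the lowest WT library in TT4.

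Part of the reads of 2 of these genes may belong to other loci. LDOX shares 364 bp at 96.2% identity with AT4G22870, which was not analysed here. GSTF12 overlaps AT5G17230 on the other strand by 108 bp, and the sources used here do not give whether counting used strand. The lowest values still rest on many reads: DFR had 114 in overexpressor replicate 3 (exact Poisson 95% interval 94.0 to 137), against 2369 in replicate 2, and intervals of this kind cover counting error only.

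The promoters of the 4 pigment genes are shown because these genes moved together among the overexpressor plants. Each line gives 250 bases before and 50 bases after the annotated start (TAIR10.1, RefSeq), 5′ to 3′ in the direction of the gene, with capitals for any of the motifs searched, on either strand.
TT4 (chr5:4488226-4488525, plus strand): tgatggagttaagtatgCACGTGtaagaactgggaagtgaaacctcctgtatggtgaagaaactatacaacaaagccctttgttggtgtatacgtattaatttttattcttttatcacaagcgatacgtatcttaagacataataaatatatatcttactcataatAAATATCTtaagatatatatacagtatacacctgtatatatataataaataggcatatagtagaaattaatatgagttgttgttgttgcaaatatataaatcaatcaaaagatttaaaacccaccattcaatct
DFR (chr5:17165983-17166282, minus strand): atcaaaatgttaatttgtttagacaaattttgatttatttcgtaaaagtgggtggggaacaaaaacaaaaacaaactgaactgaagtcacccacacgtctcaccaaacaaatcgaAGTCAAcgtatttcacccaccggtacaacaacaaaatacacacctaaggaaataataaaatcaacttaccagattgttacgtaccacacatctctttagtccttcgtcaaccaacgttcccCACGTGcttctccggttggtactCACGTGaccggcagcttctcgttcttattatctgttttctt
LDOX (chr4:12006160-12006459, minus strand): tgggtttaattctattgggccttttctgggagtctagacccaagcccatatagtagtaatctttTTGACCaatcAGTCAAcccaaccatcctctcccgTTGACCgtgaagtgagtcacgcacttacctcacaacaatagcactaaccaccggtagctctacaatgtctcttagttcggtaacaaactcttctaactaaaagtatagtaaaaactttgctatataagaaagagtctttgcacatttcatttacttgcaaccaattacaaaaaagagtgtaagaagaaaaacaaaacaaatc
GSTF12 (chr5:5658166-5658465, plus strand): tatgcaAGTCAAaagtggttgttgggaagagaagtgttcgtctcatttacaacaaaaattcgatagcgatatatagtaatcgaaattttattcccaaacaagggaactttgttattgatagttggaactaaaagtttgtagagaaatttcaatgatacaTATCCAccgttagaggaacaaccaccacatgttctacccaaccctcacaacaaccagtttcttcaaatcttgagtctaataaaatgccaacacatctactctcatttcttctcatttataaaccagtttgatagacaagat
The motifs were CACGTG (the G-box), then AAATATCT (the evening element of clock genes), then GCCGAC (the core of the cold and drought element), then TTGACC or TTGACT (the W-box), then TATCCA (a sugar-response motif), then GNATATNC (the phosphate-response element), and none of these contains another. CACGTG, its own reverse complement, occurred 2 times in the DFR promoter and 1 time in that of TT4, and not in the windows of LDOX and GSTF12. Over the 27 genes it was in 5 windows (18.5%), against 8.21% of 24433 promoters. The W-box was in 9 of the 27 (33.3%, against 32.4% of all), TATCCA in 6 (22.2%, against 16.3%), AAATATCT in 2 (7.41%, against 5.79%), GNATATNC in 1 (3.70%, against 6.2%) and GCCGAC in 0 (against 3.44%). In LDOX the W-box occurred 3 times. Matches describe the letters of these windows only.

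The rest of the flavonoid list was looked at for the same order. This list and those below were chosen with earlier results of these data known, and the order comes from the same 3 overexpressor plants. Shares of listed genes with an order therefore describe these plants and test nothing. Of 30 listed flavonoid and anthocyanin genes, 22 averaged 1 FPKM or more across the libraries and were tested, and 18 of these are not among the 27. In 11 of the 18 (61.1%) overexpressor replicate 2 was highest and replicate 3 lowest, against 13.7% of 16843 genes tested outside the 27. Their median highest-to-lowest fold in the overexpressor was 2.31, against 1.23 over those genes. AT5MAT, TT7, MYB90 and PAP1 were picked once their values were known. AT5MAT, which malonylates anthocyanins, stood at 1.301, 4.86 and 0.459 FPKM in the overexpressor and at 9.08, 2.17 and 2.02 FPKM in WT. The flavonoid hydroxylase TT7, whose highest value fell just short of 10 FPKM, stood at 1.88, 9.54 and 1.104 FPKM in the overexpressor and at 9.29, 5.79 and 6.101 FPKM in WT. The regulator MYB90 stood at 4.46, 8.59 and 2.17 FPKM in the overexpressor and at 21.4, 4.26 and 3.804 FPKM in WT, while its relative PAP1 stood at 7.75, 6.54 and 8.28 FPKM in the overexpressor and at 40.8, 1.43 and 1.49 FPKM in WT. PAP1 thus varied little among the overexpressor plants and was far higher in WT replicate 1 than in any other library. The 4 other listed genes of highest level, PAL1, PAL2, TTG1 and MYBL2, had overexpressor folds of 1.05, 1.30, 1.13 and 1.99, so the general phenylpropanoid entry enzymes PAL1 and PAL2 did not share the spread.

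**Figure D3:**
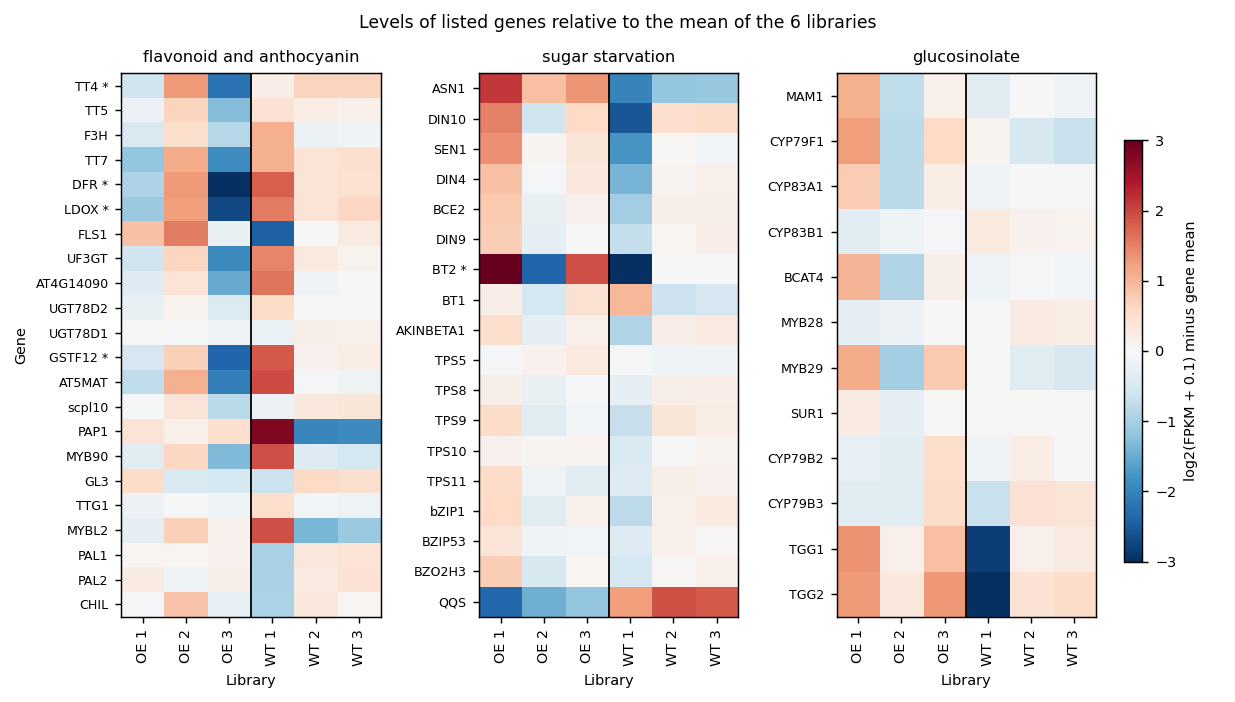
Colour gives log2(FPKM + 0.1) minus the gene's mean over the 6 libraries, for listed genes averaging 1 FPKM or more (rows, * for members of the 27) in 3 lists; columns are overexpressor (OE) replicates 1 to 3, then WT replicates 1 to 3. Most flavonoid genes are red in overexpressor replicate 2 and blue in replicate 3, and most sugar starvation and several glucosinolate genes are red in replicate 1 and paler or blue in replicate 2.

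BT2, BT5, GDPD2 and PHI-1 were led by overexpressor replicate 1 instead. BT2 (AT3G48360, chromosome 3, 17907767 to 17910738, minus strand), a scaffold protein with BTB and TAZ domains, stood at 38.98, 0.493 and 11.8 FPKM in the overexpressor and at 0.248, 2.99 and 2.97 FPKM in WT, and its 79.1-fold spread in the overexpressor was the largest of the 9973 genes. It rested on 59 reads in replicate 2 (exact Poisson 95% interval 44.9 to 76.1) and 4648 in replicate 1. WT replicates 2 and 3 lay well inside the overexpressor range and WT replicate 1 below it. Its relative BT5 (AT4G37610, chromosome 4, 17670481 to 17672353, minus strand) stood at 77.1, 14.7 and 21.98 FPKM in the overexpressor and at 3.13, 21.8 and 26.9 FPKM in WT, again highest in replicate 1 and lowest in replicate 2. BT5 shares 151 bp with AT4G37608 on the other strand. GDPD2 (AT5G41080, chromosome 5, 16441655 to 16444023, plus strand), a glycerophosphodiester phosphodiesterase, an enzyme type that cleaves lipid breakdown products, stood at 30.7, 2.85 and 2.21 FPKM in the overexpressor and at 0.252, 4.45 and 6.01 FPKM in WT. It was high in overexpressor replicate 1 alone. PHI-1 (AT1G35140, chromosome 1, 12851983 to 12853235, plus strand), an exordium-like gene, stood at 15.2, 1.26 and 3.19 FPKM in the overexpressor and at 0.161, 6.35 and 7.83 FPKM in WT, with the same order as BT2.

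Most other genes of the sugar starvation list had the order of BT2 at smaller size. Of 20 listed, 18 were tested, and 13 of the 17 that are not among the 27 (76.5%) were highest in overexpressor replicate 1 and lowest in replicate 2, against 18.5% of the genes tested outside the 27. DIN10, a raffinose synthase-like gene that responds to darkness, stood at 617, 142 and 327 FPKM in the overexpressor and at 35.99, 306 and 313 FPKM in WT. AKINBETA1, a subunit of the energy-sensing kinase SnRK1, stood at 95.1, 54.9 and 73.7 FPKM in the overexpressor and at 35.4, 76.4 and 80.3 FPKM in WT. The trehalose phosphate synthase-like gene TPS8 stood at 54.4, 41.1 and 46.8 FPKM in the overexpressor and at 39.7, 54.3 and 54.97 FPKM in WT. QQS, an orphan gene of starch metabolism, did not follow and stood at 5.35, 10.01 and 12.1 FPKM in the overexpressor and at 66.4, 105 and 98.95 FPKM in WT. Nor did BT1, the closest match of BT2 by sequence, which was picked once its values were known. It stood at 16.4, 9.77 and 19.7 FPKM in the overexpressor and at 28.5, 9.28 and 9.94 FPKM in WT. WT replicate 1 was the lowest WT library in 15 of the 17 (88.2%, against 42.1%). It was also the lowest in 86.4% of all genes that reached 10 FPKM and had the order of BT2, listed or not. The 17 include other orders and genes under 10 FPKM, so these 2 shares are not matched. A low WT replicate 1 was thus common outside the list too, among genes of that order. Of 21 listed starch and sugar supply genes none was among the 27, and the 18 tested had a median fold of 1.48.

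Nitrogen genes had no single order. NRT2.5 (AT1G12940, chromosome 1, 4416315 to 4418590, plus strand), a high-affinity nitrate transporter of nitrogen-starved plants, stood at 3.397, 20.3 and 4.11 FPKM in the overexpressor and at 52.4, 14.2 and 14.03 FPKM in WT. It was highest in overexpressor replicate 2 among the overexpressor plants, and WT replicate 1 was far above all 3. NRT2.5 shares 164 bp at 95.1% identity with AT4G14358. NIA2, the main nitrate reductase, missed the rule narrowly with a fold of 4.86 and stood at 151, 31.1 and 92.9 FPKM in the overexpressor and at 69.5, 90.9 and 91.2 FPKM in WT, highest in replicate 1 where NRT2.5 was lowest. Of the 26 tested genes of the nitrogen list outside the 27, 11 (42.3%) had the order of BT2, replicate 1 highest with replicate 2 lowest. That order was found in 18.5% of the genes tested outside the 27. Another 6 (23.1%, against 13.7%) had replicate 2 highest with replicate 3 lowest. The rest had neither order, as NRT2.5 did. The listed genes of highest level, GS2, AMT1;1, GSR 1 and GLN1;4, had overexpressor folds of 1.19, 1.21, 1.58 and 1.98, and NIA2 was picked once its values were known.

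Genes of glucosinolate metabolism were lowest in overexpressor replicate 2 or high in replicate 3. IMD1 (AT5G14200, chromosome 5, 4576123 to 4578402, plus strand), an isopropylmalate dehydrogenase that lengthens the side chain of aliphatic glucosinolates, stood at 79.8, 12.7 and 28.7 FPKM in the overexpressor and at 22.4, 35.3 and 34.4 FPKM in WT. FMO GS-OX1 (AT1G65860, chromosome 1, 24498954 to 24502776, minus strand), which oxidises that side chain, stood at 13.8, 2.32 and 7.48 FPKM in the overexpressor and at 4.24, 4.89 and 4.52 FPKM in WT, so replicates 1 and 3 lay above every WT library. MBP1 (AT1G52040, chromosome 1, 19350314 to 19352791, minus strand), a protein that binds myrosinase, the enzyme that breaks glucosinolates down, stood at 1.36, 2.703 and 13.1 FPKM in the overexpressor and at 1.19, 2.13 and 1.99 FPKM in WT. MBP1 was high in overexpressor replicate 3 alone. Of 14 listed glucosinolate genes 12 were tested, none of them among the 27, and 10 of the 12 (83.3%) were lowest in replicate 2, against 29.5% of the genes tested outside the 27. Of those of highest level, BCAT4, the aminotransferase that starts side chain elongation, stood at 258, 67.6 and 142 FPKM in the overexpressor and at 115, 121 and 120.4 FPKM in WT. CYP83A1, of the core pathway, stood at 250.1, 83.3 and 171 FPKM in the overexpressor and at 136, 145 and 140.1 FPKM in WT. Both biosynthetic genes were lowest in overexpressor replicate 2. The myrosinase TGG1 stood at 615, 268 and 448 FPKM in the overexpressor and at 33.5, 265 and 288 FPKM in WT, and the myrosinase TGG2 stood at 1439, 741 and 1456 FPKM in the overexpressor and at 40.2, 801 and 863 FPKM in WT. MYB29, a regulator of the aliphatic branch picked once its values were known, stood at 21.7, 4.86 and 17.2 FPKM in the overexpressor and at 10.01, 7.696 and 7.13 FPKM in WT. IMD1 and IMD3 share 1171 bp at 93.7% identity, and IMD3 stood at 12.1, 13.6 and 11.4 FPKM in the overexpressor and at 15.6, 10.5 and 11.2 FPKM in WT.

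Of 4 genes that act in or on the cell wall, TCH4, XTH18 and AGP2 were highest in overexpressor replicate 1 and EXT4 was not. TCH4 (AT5G57560, chromosome 5, 23307006 to 23308680, minus strand), a xyloglucan endotransglucosylase induced by touch, stood at 225, 42.03 and 101 FPKM in the overexpressor and at 7.897, 85.8 and 95.4 FPKM in WT. XTH18 (AT4G30280, chromosome 4, 14825757 to 14827211, minus strand), of the same family, stood at 18.4, 3.42 and 8.16 FPKM in the overexpressor and at 0.266, 8.54 and 10.2 FPKM in WT. AGP2 (AT2G22470, chromosome 2, 9538127 to 9538963, minus strand), an arabinogalactan protein, stood at 22.9, 3.98 and 17.8 FPKM in the overexpressor and at 1.5002, 18.5 and 21.996 FPKM in WT. All 3 were highest in replicate 1 and lowest in replicate 2, and WT replicate 1 was below every other library. XTH18 shares 1249 bp at 90.7% identity with XTH17, which was at 0.389 FPKM or less in the overexpressor and 0.444 FPKM or less in WT. EXT4 (AT1G76930, chromosome 1, 28895301 to 28897120, minus strand), an extensin, followed the pigment genes instead and stood at 2.49, 10.5 and 0.958 FPKM in the overexpressor and at 11.1, 5.43 and 5.91 FPKM in WT. Among 15 other tested genes of the rapid touch and wound list, 5 (33.3%) had the order of TCH4, against 18.5%, and replicates 1, 2 and 3 were highest in 5 genes each. The calmodulin-like TCH3 stood at 129, 48.95 and 76.5 FPKM in the overexpressor and at 32.7, 85.3 and 78.5 FPKM in WT. WRKY18, a defence regulator, stood at 35.97, 15.5 and 25.3 FPKM in the overexpressor and at 8.26, 42.1 and 43.6 FPKM in WT. CZF1 and ERF4 had overexpressor folds of 1.12 and 1.28.

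Stress, lipid and surface genes fell into several orders. ELIP1 (AT3G22840, chromosome 3, 8084405 to 8085669, minus strand), an early light-induced protein of chloroplasts, stood at 21.02, 73.1 and 13.9 FPKM in the overexpressor and at 42.2, 75.03 and 69.8 FPKM in WT. FSD1 (AT4G25100, chromosome 4, 12884300 to 12887011, minus strand), an iron superoxide dismutase of chloroplasts, stood at 18.3, 6.32 and 55.02 FPKM in the overexpressor and at 11.7, 33.3 and 32.8 FPKM in WT. BCB (AT5G20230, chromosome 5, 6826365 to 6827748, plus strand), a blue copper-binding protein of stress responses, stood at 28.2, 5.51 and 8.65 FPKM in the overexpressor and at 6.49, 10.6 and 10.2 FPKM in WT. ELIP1 was high in overexpressor replicate 2 and at a like level in WT replicates 2 and 3, while FSD1 peaked in overexpressor replicate 3 and BCB in replicate 1. AT4G21870 (chromosome 4, 11603481 to 11604637, minus strand), annotated as a chaperone of the HSP20 kind, stood at 19.8, 3.46 and 13.4 FPKM in the overexpressor and at 1.74, 16.95 and 17.58 FPKM in WT. The lipid transfer protein gene LTP2 (AT2G38530, chromosome 2, 16128176 to 16129399, plus strand) stood at 1.74, 18.3 and 2.21 FPKM in the overexpressor and at 7.19, 2.82 and 5.53 FPKM in WT. Its WT replicates 2 and 3 differed 1.96-fold, the largest such ratio of all 9973 genes. LTP6 (AT3G08770, chromosome 3, 2664069 to 2664888, minus strand), another of that family, stood at 0.969, 11.9 and 3.91 FPKM in the overexpressor and at 0.216, 14.8 and 12.8 FPKM in WT. It had only 32 reads in overexpressor replicate 1 (exact Poisson 95% interval 21.9 to 45.2), the fewest in any overexpressor library among the 27. In WT replicate 1 LTP6 had 7 reads. AT2G37870 (chromosome 2, 15859204 to 15859942, plus strand), annotated in the lipid transfer and seed storage albumin superfamily, stood at 4.105, 20.5 and 25.6 FPKM in the overexpressor and at 5.93, 3.26 and 3.92 FPKM in WT. AT5G22490 (chromosome 5, 7458774 to 7461093, minus strand), annotated as a WSD1-like acyltransferase, stood at 12.5, 25.95 and 3.14 FPKM in the overexpressor and at 12.3, 15.2 and 12.6 FPKM in WT. These lipid genes therefore shared no single order.

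The last 3 genes have little known function. MLP28 (AT1G70830, chromosome 1, 26709889 to 26711587, minus strand), a major latex protein-like gene, stood at 164, 28.1 and 214 FPKM in the overexpressor and at 7.04, 25.6 and 27.5 FPKM in WT. It was high in overexpressor replicates 1 and 3, and replicate 2 was close to WT replicates 2 and 3. AT4G01985 (chromosome 4, 866151 to 868253, minus strand), an uncharacterised protein, stood at 0.899, 13.002 and 14.7 FPKM in the overexpressor and at 6.92, 0.704 and 0.7101 FPKM in WT, high in 2 overexpressor plants and in WT replicate 1. AT5G64910 (chromosome 5, 25940661 to 25944114, plus strand) is annotated as a serine/threonine kinase and stood at 5.76, 26.6 and 4.13 FPKM in the overexpressor and at 8.32, 8.75 and 9.22 FPKM in WT. Overexpressor replicate 2 alone was high, and the 3 WT libraries differed by 1.11-fold. AT5G64910 shares 207 bp with AT5G64920 on the other strand.

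The remaining lists held none of the 27, apart from ELIP1 in the clock and light list, and some had an order of their own. In 24 of 26 tested genes of the cold, drought and abscisic acid list (92.3%) overexpressor replicate 1 was lowest, against 45.7% of the genes tested outside the 27. The dehydrin COR47 stood at 366, 408 and 427 FPKM in the overexpressor and at 281, 282 and 299 FPKM in WT, and RD22 stood at 652, 968 and 679 FPKM in the overexpressor and at 507, 846 and 796 FPKM in WT. The lipid transfer proteins LTP3 and LTP4 of that list had overexpressor folds of 1.77 and 1.36. Median folds of the others were 1.51 for 7 heat shock genes, 1.62 for 16 jasmonate genes, 1.49 for 10 salicylate and pathogen defence genes, 2.58 for 4 senescence genes and 1.39 for 15 phosphate, iron and sulphur genes. Of the clock and light list, 13 of 17 genes other than ELIP1 (76.5%) were highest in overexpressor replicate 2, against 44.1%. FKF1, a light-sensing clock component, stood at 30.9, 53.2 and 38.7 FPKM in the overexpressor and at 105, 13.6 and 13.9 FPKM in WT. TOC1 stood at 104, 123 and 114 FPKM in the overexpressor and at 155, 112 and 106 FPKM in WT. ELF3 and ELF4 had overexpressor folds of 1.12 and 1.61. The fibre and secondary wall markers were lowest in overexpressor replicate 2 and in WT replicate 1, as were the 10 genes led by BT2, and most clock and light genes were highest in overexpressor replicate 2, as were the pigment genes. Their part in these results was not tested.

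WT values were not used to choose the genes, so the spread among WT stems can be set beside that of other genes. In 10 of the 27 genes (37.0%) the highest WT value was at least 5 times the lowest, against 3.68% of the 9973 genes. Without WT replicate 1 the count was 0 of 27, as it would be for any genes: WT replicates 2 and 3 differed at most 1.96-fold in the 9973. They lay within 1.5-fold in 26 of the 27 genes (96.3%, against 99.9%). Some of the 10 wide WT folds rest on few reads. WT replicate 1 had 7 reads for LTP6, 9 for PHI-1, 15 for XTH18, 18 for GDPD2 and 29 for BT2. WT replicate 1 was the lowest WT library in 19 of the 27 (70.4%, against 43.5%) and the highest in the other 8 (29.6%, against 50.5%). Its value lay above the overexpressor range in 5 genes (18.5%, against 47.0% of the 9973), within it in 11 (40.7%, against 18.0%) and below it in 11 (40.7%, against 35.0%). The members' range was chosen to be wide, which by itself leaves more values within it. In all 12 genes with overexpressor replicate 2 lowest, WT replicate 1 was the lowest WT library, but so it was in 82.5% of the 3127 genes of that kind. In 6 of the 11 genes with overexpressor replicate 2 highest, WT replicate 1 was the highest WT library, against 80.02% of 4454 genes. The exceptions were TT4, ELIP1, LTP6, AT5G22490 and AT5G64910. The same rule applied to the WT libraries took 340 genes, of which 6 were among the 27, 22.2% of the 27 and 1.76% of the 340.

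**Figure D4:**
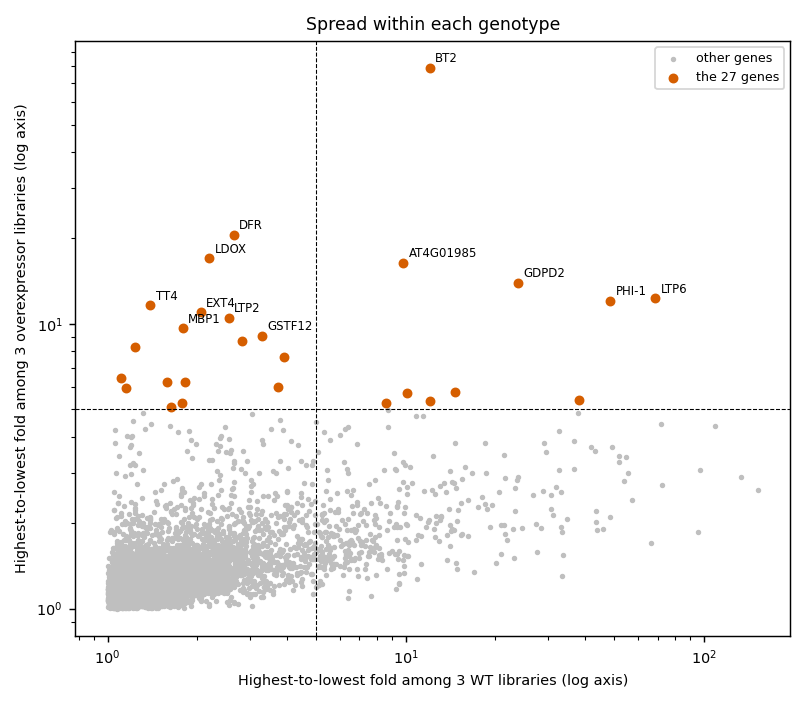
Highest-to-lowest fold among the 3 overexpressor libraries (vertical) and among the 3 WT libraries (horizontal), both on log axes, for the 9973 genes that reached 10 FPKM in an overexpressor library. The 27 genes are orange, dashed lines mark 5-fold, and 10 of the 27 lie to the right of the vertical line.

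No difference between the genotypes was detected for these genes. The test was limma on log2(FPKM + 1), two-sided, with Benjamini-Hochberg adjustment over 16870 genes, and the wide overexpressor spread that chose the 27 also widens their error. None of the 27 was called at an adjusted p under 0.05, against 0.0119% of all genes tested. At an unadjusted p under 0.05 there was 1 of 27, MLP28, against 5.43%, and limma-voom on the recovered reads also called 0 and had 1 at that level. Without overexpressor replicate 2, 12 of the 27 passed the unadjusted threshold, against 5.11% of genes in that fit, and 0 the adjusted one. That replicate was the highest or lowest overexpressor value in 23 of the 27 (85.2%, against 76.0% of the 9973 genes). Leaving it out narrows the spread the genes were chosen for, so nothing is read from the count of 12. Without WT replicate 1, 0 of the 27 passed the unadjusted threshold, against 10.6% of genes. The groups failed to overlap in 1 of the 27, again MLP28, against 14.5% of genes tested. The wide overexpressor range that chose the genes by itself makes overlap likelier, so nothing is read from this share. MLP28 averaged 135 ± 96.2 FPKM in the overexpressor and 20.1 ± 11.3 FPKM in WT (SD, n = 3 each). On the log2(FPKM + 1) scale the difference was 2.46 (SE 0.89), with an adjusted p of 0.805 from limma. It was 3.36 without overexpressor replicate 2, 1.92 without overexpressor replicate 3 and 1.87 without WT replicate 1. AT2G37870 averaged 16.8 ± 11.2 and NRT2.5 9.26 ± 9.55 FPKM in the overexpressor, against 4.37 ± 1.39 and 26.9 ± 22.1 FPKM in WT (SD, n = 3 each). Their log2 fold changes were 1.44 (SE 0.64) and -1.56 (SE 0.78), each with a limma adjusted p of 0.805. The AT2G37870 difference was 2.19 without overexpressor replicate 1 and 1.00 without overexpressor replicate 3, and that of NRT2.5 was -2.28 without overexpressor replicate 2 and -0.95 without WT replicate 1. The median log2 fold change was 0.18 over the 27 genes and -0.04 over all genes tested, but for the 27 its sign depended on single plants: it was -0.16 without WT replicate 1, -0.10 without overexpressor replicate 1 and 0.76 without overexpressor replicate 2. It was 0.42 without WT replicate 2, 0.39 without WT replicate 3 and 0.30 without overexpressor replicate 3. In each functional list, too, limma called 0 genes higher and 0 lower. The mean of the WT libraries lay inside the overexpressor range in 24 of the 27 genes (88.9%, against 47.8% of the 9973), above it for GSTF12 and NRT2.5 and below it for MLP28. Without WT replicate 1 it lay inside for 23 (85.2%, against 56.9%), GSTF12 (8.71 FPKM) and NRT2.5 (14.1 FPKM) among them. It was then above the range for LTP6 and below it for MLP28, AT4G01985 and AT2G37870. A range chosen to be wide takes in more WT means by itself, so nothing is read from these shares.

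The threshold drew a line through a continuum. Just inside it were ELIP1 at 5.27-fold, BT5 at 5.26-fold and BCB at 5.11-fold, and just outside were the desaturase gene ADS4 at 4.99-fold, NIA2 at 4.86-fold and MIOX2 at 4.84-fold. By level, EXT4 at 10.5 FPKM was the last gene inside, and AT1G49500 at 9.80 FPKM and TT7 at 9.54 FPKM were the first outside.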

How the data were processed

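The authors deposited 1 table of FPKM values for 24434 genes in 3 overexpressor and 3 WT libraries; per the submitters' processing notes HISAT2 was among the tools. The sources used here do not give its version, the build, the counter or the strand setting. Columns were assigned by name, with 0 left over. Multiplied by TAIR10.1 exonic length, 100% of the FPKM values came out as whole reads (tolerance 0.1 reads), which gave the read numbers. All 24434 identifiers matched RefSeq loci.

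The genes, and the 21 lists (298 genes) of functions and tissue markers, were chosen with earlier results of these data known. All 27 genes are named; listed genes outside the 27 are named up to 4 a list by highest mean FPKM, others as chosen after their values were seen. limma (version 3.58.1, R 4.3.3, trend) was fitted to all genes averaging 1 FPKM or more, with a pseudocount of 1 FPKM, which understates changes of low genes. It was also run on simulated counts with the same dispersion for all genes and no library standing apart. That setting differs from these data, so the run does not show how the fit performs on them. Similar loci were sought with blastn 2.17.0 between exonic sequences. Promoters were read from the RefSeq genome. Alternatives covered the pseudocount, filter, scaling, replicate block, voom, each library left out, and the rule's thresholds. If the plants are separate, as the labels give them, p-values measure spread between plants and preparation together.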

Additional observations from a re-analysis of the deposited data

How the results depend on the processing

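None of the 27 genes was called in limma under any of 12 alternatives (a filter at a mean of 5 FPKM tested 26 of them). Over all genes, 2 were called, and 4 without a filter, 0 with the replicate block, 1 in voom on the recovered reads, and 1 to 23 when 1 library was left out (23 without WT replicate 1); the cause was not tested. At an unadjusted p under 0.05, 12 of the 27 passed without overexpressor replicate 2 (5.11% of all genes in that fit), against 1 over all 6 libraries. That replicate was an extreme of the chosen spread in 23 of the 27 (85.2%, against 76.0% of the 9973 genes), so nothing is read from the 12. The labels do not say whether the replicate numbers pair the plants. Deviations of same-numbered libraries correlated at -0.603, -0.592 and 0.0282 across genes. WT replicates 2 and 3 were nearly alike (Spearman correlation 0.997), so these values cannot show whether the numbers pair plants. The rule took 27 genes, 10 at 10-fold, 132 at 3-fold, 47 with the highest value at 5 FPKM or more and 16 at 20 FPKM or more, since each is a looser or stricter cut. With median-ratio scaling it took 32, all 27 among them, and no fold fell under 5. At 3-fold, overexpressor replicate 1 was highest in 86 of 132 genes and replicate 2 lowest in 74. Over the 9973 genes that reached 10 FPKM, replicate 1 was highest in 30.1% and replicate 2 lowest in 31.4%. The 10 genes with a WT fold of at least 5 became 0 without WT replicate 1, where no gene of the 9973 exceeded 1.96-fold. They were 10 without WT replicate 2 or 3 and under median-ratio scaling. Reads limited only the lowest values.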

Other observations

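Some listed genes outside the 27 also varied several-fold among the overexpressor plants, and those given here were chosen after their values were seen. The thionin gene THI2.1, a jasmonate-responsive defence peptide, stood at 0.0229, 1.46 and 0.161 FPKM in the overexpressor and at 0.117, 1.84 and 2.804 FPKM in WT. In overexpressor replicate 1 a gene of 1 kb gains 0.0220 FPKM per read, so the lowest THI2.1 value lies near the floor of counting. The senescence protease gene SAG12 stood at 5.66, 23.7 and 9.24 FPKM in the overexpressor and at 123, 23.2 and 24.8 FPKM in WT, highest by far in WT replicate 1. HAI1, a phosphatase of abscisic acid signalling, stood at 1.36, 2.81 and 7.68 FPKM in the overexpressor and at 1.12, 0.509 and 0.802 FPKM in WT, and the purple acid phosphatase gene PAP17 stood at 0.6898, 2.78 and 4.25 FPKM in the overexpressor and at 4.34, 1.09 and 1.102 FPKM in WT.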
